A study of Mus musculus with 4 samples.

Results

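The TRIM ubiquitin ligase family was taken as every row of the authors' gene table whose name is Trim followed by a number, which gave 30 genes, plus 9230105E10Rik, the gene now named Trim12c. These 31 genes were members of a table of 10716 genes, and the NCBIM37 annotation holds 68 names of the Trim-plus-number form. Members were chosen with the knockout-against-control results in view: 9230105E10Rik was added for its difference between the groups, and Trim21, Trim25, Trim30 and Trim34 were set against Trim10, Trim58 and Trim28 for the same reason. Differences between the groups are therefore given as descriptions of the members, and nothing is supported with them.

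The RNA came from fetal livers of C57BL/6 mice at embryonic day 14.5, from erythroid cells isolated by flow cytometry for YFP made from the R26eYFP reporter. In 2 libraries labelled knockout (replicates 1 and 2) Cre recombinase driven by the erythropoietin receptor gene Epor acts on Adar, which encodes the RNA editor ADAR1. Their genotype field is Epor-Adar / +, and from it 1 deleted allele or both are possible. The other 2 libraries (replicates 3 and 8) are labelled wild type and are called controls here; the labels do not say whether the controls carry the Cre or the reporter alone. The labels do not say that each library came from its own embryo, so p-values measure the spread between these 4 libraries.

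Most TRIM proteins share a RING finger, which recruits a ubiquitin-conjugating enzyme, followed by 1 or more B-boxes and a coiled coil through which they pair. The region after the coiled coil sets the target: a PRY-SPRY domain in many antiviral members, a PHD finger and bromodomain in the TIF1 chromatin members, NHL repeats or a membrane anchor in others. Many antiviral members are interferon-stimulated genes, whereas TRIM10 and TRIM58 are known from maturing red cells and TRIM28 is the corepressor that zinc finger proteins use to silence transposable elements.

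Total counts ran from 28356401 to 44016809 per library. Adar itself, which is no member, was at 67.1 and 102 CPM (reads of the gene relative to the scaled library total) in knockout-labelled replicates 1 and 2 and at 50.9 and 46.9 CPM in control replicates 3 and 8, so that it was not lower in the libraries labelled knockout, and gene-level counts do not show which exons were read. For 3 of the 4 libraries the sex label did not match the counts of 4 Y-linked genes. Whether libraries were exchanged within or between the groups cannot be told from the files, so every value stands under the label its library carries. All 10 erythroid marker genes were measured, with a summed level of 70200 and 70800 CPM under the knockout label and 100000 and 66400 CPM in the controls. Across the table, 8864 genes were farther from the control mean in knockout-labelled replicate 1 than in replicate 2 (82.7%), as were 23 of the 31 members. In bulk RNA, fewer cells of a type and less RNA per cell cannot be told apart.

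The members differed in direction. Both knockout-labelled libraries lay above both controls for 17 of the 31 members (27.4% of all genes tested) and below both controls for 5 (26.7% of all genes tested), and the groups overlapped for 9. Groups that did not overlap were thus found for 22 members (54.0% of all genes). A log2 fold change of at least 1 was seen for 9 members (7.37% of all genes) and of -1 or less for 0 (1.39%). The median log2 fold change, knockout-labelled minus control, was 0.30 over the members and -0.0008 over all genes. With edgeR's quasi-likelihood test and Benjamini-Hochberg adjustment over all 10716 genes, 1 member was called higher (0.103% of all genes were called, all of them higher), namely 9230105E10Rik, which had been chosen on that value, and 0 members were called lower (0.0% of all genes). Of the 30 members chosen by name, 0 passed, and the smallest adjusted p among them was 0.0739 for Trim34. At an unadjusted p below 0.05, 12 members were higher (9.82% of all genes) and 0 were lower (2.08% of all genes). The 17 above both controls, the 9 at log2 1 or more and these 12 all include Trim30, Trim34, Trim5 and Trim46. Those genes were below 1 CPM in both controls. For them a higher value under the knockout label was a condition of being in the table. The count of called members depended on single libraries: it was 7 without knockout-labelled replicate 1 (1.33% of all genes called), 17 (12 higher and 5 lower) without knockout-labelled replicate 2 (32.6%), and 3 when either control was left out (0.383% for replicate 3 and 0.252% for replicate 8). DESeq2 called 8 members, all higher (3.49% of all genes), and the quasi-likelihood test with no scaling between libraries called 5, all higher (0.812%). The stricter filter (0.142% of all genes called) and legacy=FALSE (0.14%) each left 9230105E10Rik as the only called member.

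**Figure D1:**
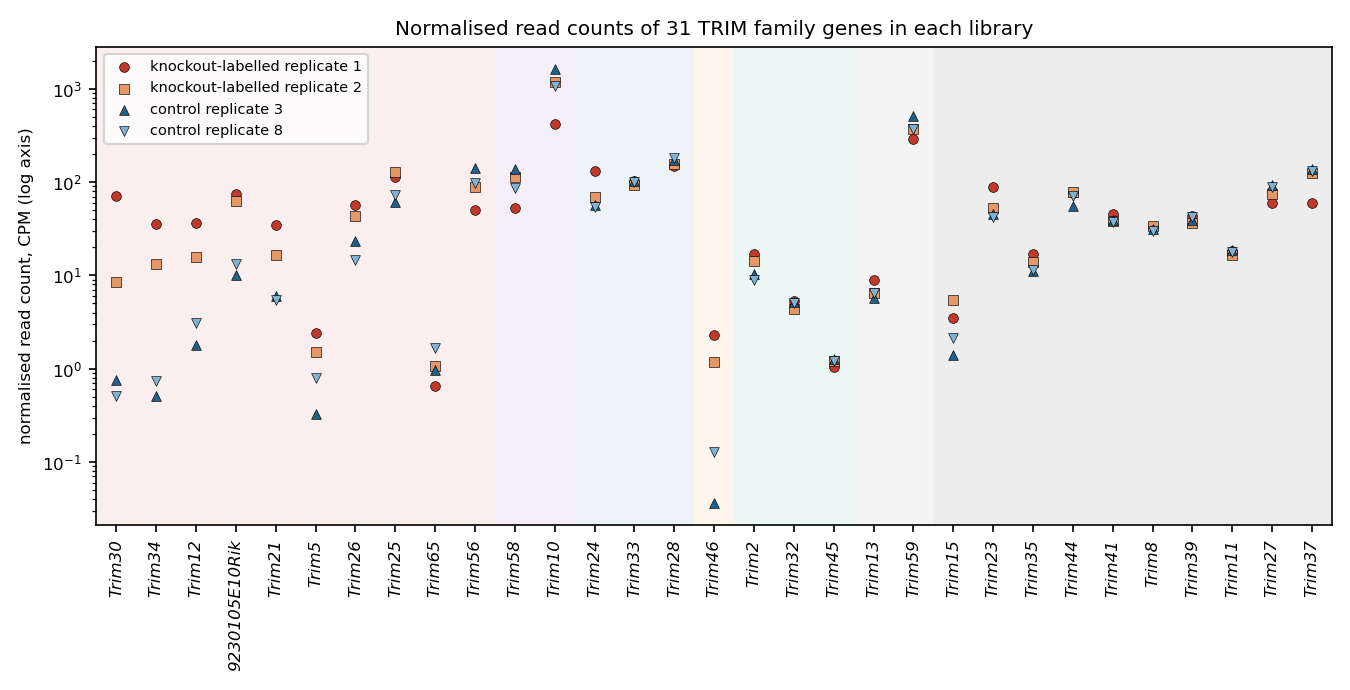
Normalised read count (CPM, log axis) of the 31 TRIM family genes, 1 point per library: circles and squares are knockout-labelled replicates 1 and 2, upward and downward triangles are control replicates 3 and 8. Shading separates, from left to right, the antiviral or interferon-linked, erythroid, TIF1, COS-box, NHL and filamin, membrane-anchored and other members. The widest separation of the groups is at Trim30 and Trim34, with 70.4 and 8.42 against 0.761 and 0.507 CPM for Trim30.

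Among the 10 measured antiviral or interferon-linked members the median log2 fold change was 1.96, with a range from -0.78 to 5.98. Both knockout-labelled libraries exceeded both controls in 8 of them (27.4% of all genes), were below both in 1, Trim56 (26.7%), and overlapped the controls in 1 (Trim65). Of the 8, 9230105E10Rik was added for its value. Trim30, Trim34 and Trim5 were below 1 CPM in both controls. For them a higher value under the knockout label was a condition of being in the table. Such genes also enter the median, and the others of the 8 were Trim12, Trim21, Trim25 and Trim26. Outside this class the medians lay nearer to 0, apart from Trim46 as the single COS-box member. They were -0.61 for the 2 erythroid members, -0.06 for the 3 TIF1 members and -0.08 for the 3 NHL and filamin members. The 2 membrane-anchored members had a median of -0.04 and the 10 others 0.13. These medians are descriptions, because the classes were drawn up with the values known.

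**Figure D2:**
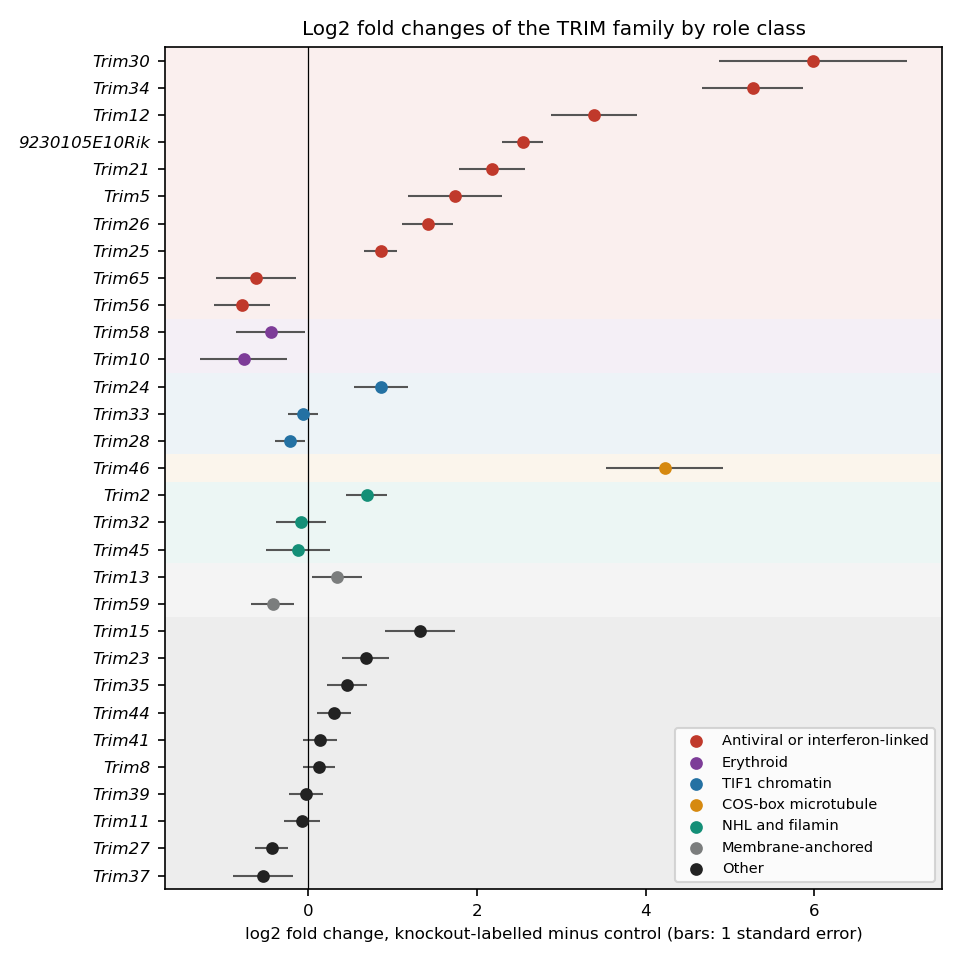
Log2 fold change (knockout-labelled minus control) of each of the 31 members, with bars of 1 standard error from edgeR's quasi-likelihood fit, arranged by role. Of the antiviral or interferon-linked genes 8 lie to the right of 0, up to 5.98 for Trim30, while Trim10 at -0.76 and Trim58 at -0.45 lie to the left.

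Of the members with the largest differences, Trim30, Trim34 and Trim12 lie in a cluster of TRIM genes on chromosome 7 that holds relatives of the primate retroviral restriction factor TRIM5, together with 9230105E10Rik and Trim5. Trim30 (Trim30a in the annotation, NCBIM37 chromosome 7, 111557539 to 111613707, minus strand) encodes a protein known to restrain Toll-like receptor signalling to NF-kB. It had 70.4 and 8.42 CPM in knockout-labelled replicates 1 and 2 and 0.761 and 0.507 CPM in control replicates 3 and 8. Both knockout-labelled libraries stood above both controls, but they differed 8.35-fold from each other. The group means were 39.4 ± 43.8 and 0.634 ± 0.180 CPM (SD, n = 2 per group), for a log2 fold change of 5.98 with a standard error of 1.11. It was 3.76 without knockout-labelled replicate 1 and 6.83 without replicate 2.

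Trim34 (Trim34a, 111392971 to 111489207 of the same chromosome, plus strand), whose human counterpart recognises retroviral capsids, had 35.9 and 13.4 CPM under the knockout label and 0.508 and 0.739 CPM in the controls. The groups did not overlap, and replicate 1 was again the higher knockout-labelled library. The log2 fold change was 5.27 with a standard error of 0.60, and it was 4.38 without knockout-labelled replicate 1 and 5.79 without replicate 2. The controls rested on few reads for both genes: Trim30 had 21 and 24 counts there against 2157 and 325, and Trim34 had 14 and 35 against 1101 and 517. The ratio of summed CPM was 59.7 for Trim30 (exact 95% interval 44.5 to 82.0) and 35.7 for Trim34 (26.9 to 48.5), where the intervals cover counting error only.

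Trim12 (Trim12a, 111448408 to 111463980, minus strand) and 9230105E10Rik (Trim12c, 111487268 to 111501876, minus strand) are mouse copies related to Trim5. Trim12 had 36.0 and 15.6 CPM under the knockout label and 1.81 and 3.06 CPM in the controls, a log2 fold change of 3.39 with a standard error of 0.51. It ran from 2.66 without knockout-labelled replicate 1 to 3.84 without replicate 2. For 9230105E10Rik the values were 74.1 and 62.7 CPM against 10.04 and 13.4 CPM. These 2 knockout-labelled values differed only 1.18-fold, where Trim30 differed 8.35-fold. On average 9230105E10Rik had 68.4 ± 8.03 and 11.7 ± 2.37 CPM (SD, n = 2 per group), for a log2 fold change of 2.54 with a standard error of 0.24. Its adjusted p in edgeR's quasi-likelihood test, the value for which it was chosen, was 0.0483, just inside the threshold of 0.05, and the authors' deposited table gives 0.0525. Leaving out any single library kept its log2 fold change between 2.35 and 2.76.

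Trim5 (111411900 to 111436608, minus strand) was the lowest of these genes, at 2.41 and 1.5 CPM under the knockout label and 0.326 and 0.803 CPM in the controls. The groups did not overlap, and the log2 fold change was 1.74 with a standard error of 0.55. It was 2.56 without control replicate 8 and 1.28 without control replicate 3. Trim30, Trim34, Trim5 and Trim46 were below 1 CPM in both controls on the scaled values and also on counts divided by the library total alone. On the latter scale every gene of the table exceeded 1 CPM in at least 2 libraries, and 176 genes did so in the knockout-labelled libraries alone. For such genes a higher value under the knockout label was a condition of being in the table.

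The genes of the chromosome 7 cluster resemble each other, and how reads shared between copies were counted is not given in the sources used here. Coding sequences of Trim34a and Trim34b were 98.83% identical, and 63.38% of the 50-base stretches of Trim34a occur in Trim34b, so the value of Trim34 cannot be assigned to 1 of the copies. Trim5 and Trim12c were 96.59% identical and shared 32.94% of such stretches, while Trim12a and Trim12c were 89.79% identical. Trim30a and Trim30d were 90.21% identical and shared 15.67% of the stretches of Trim30a. Trim21, which lies apart from the cluster on the same chromosome, shared 0.0% with any of its genes. Exons of Trim34a also share 875 bases (20.56% of its exonic bases) with Trim34b on the same strand and 609 bases (14.31%) with Gm15135 on the opposite strand. They lie over those of Trim12c on the opposite strand for 405 bases (9.52% of the exonic bases of Trim34a and 10.83% of those of Trim12c). The strand of the libraries is not stated. Trim6, Trim30b, Trim30c, Trim30d and Trim34b were not analysed here.

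**Figure D3:**
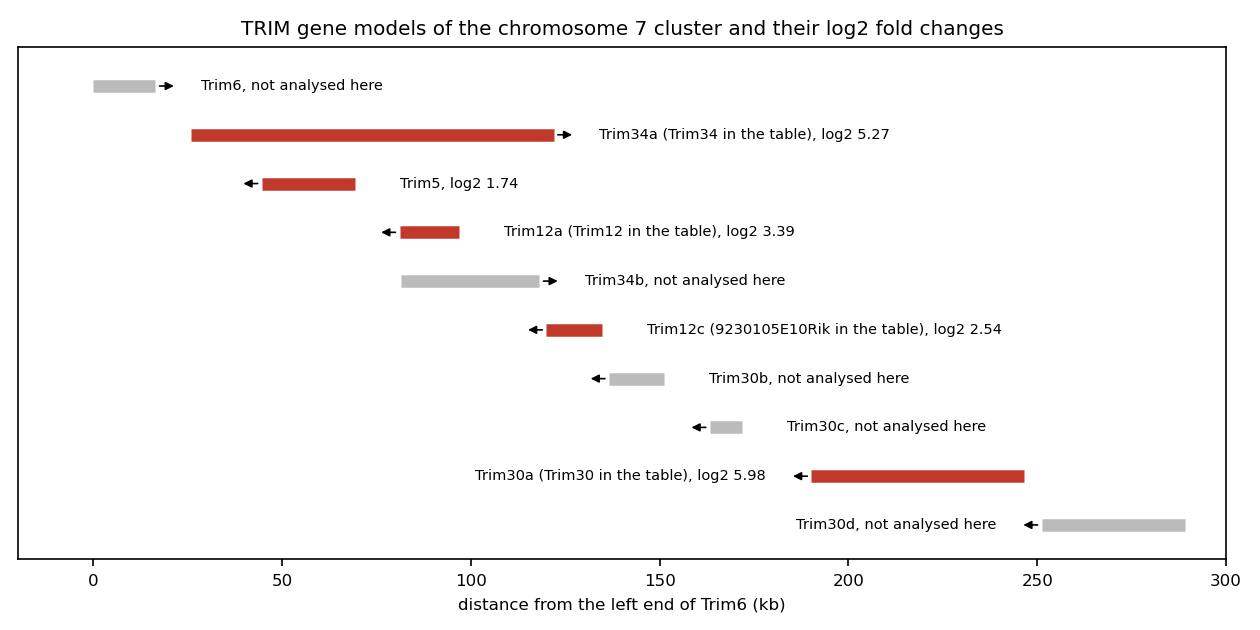
Map of the TRIM genes of the chromosome 7 cluster, with the distance from the left end of Trim6 in kilobases on the horizontal axis, each gene model drawn to scale as a bar and a small arrow for its direction of transcription. The log2 fold change is written beside the genes that were analysed, and the cluster runs from Trim6 at 0.0 kb to the end of Trim30d at 289.1 kb.

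Many antiviral members are known as interferon-stimulated genes. The RefSeq promoter windows of all members, antiviral or not, were therefore searched on both strands for GAAANNGAAA, the core of the interferon-stimulated response element. Each window ran from 250 bases before to 50 after the start of transcription. Windows were given for 26 of the 31 members. The core was present in 8 of the 26 (30.8%), against 1079 of 27025 genes with a window (3.99%) and 269 of 7286 genes of the table (3.69%). These shares are a description. The gene 9230105E10Rik was added for its values, and it, Trim12 and Trim5 carry nearly the same stretch, so their matches are not separate from each other. The stretches of 30 bases that hold the core are shown for the 7 antiviral members in which it was found. Capitals mark the core, or the run of overlapping cores, and each is written 5′ to 3′ on the strand where the core reads GAAANNGAAA.
9230105E10Rik: agctggaaatGAAACAGAAAccacaactct
Trim12: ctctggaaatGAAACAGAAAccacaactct
Trim5: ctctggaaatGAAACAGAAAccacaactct
Trim30: caggaactgaGAAAAAGAAActaaagaact
Trim34: gcagagaaaaGAAACTGAAActccaaacca
Trim21: ctgagagGAAACTGAAAGTGAAAtttggac
Trim26: ggcccgaGAAAAGGAAAGTGAAAtcggaag

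Those stretches lie in NCBIM37 at chr7:111501873-111501902 (plus strand) for 9230105E10Rik, chr7:111463980-111464009 (plus) for Trim12, chr7:111436650-111436679 (plus) for Trim5, chr7:111613724-111613753 (plus) for Trim30, chr7:111392971-111393000 (minus) for Trim34, chr7:109713961-109713990 (minus) for Trim21 and chr17:36973924-36973953 (minus) for Trim26. The stretches of Trim12 and Trim5 are letter for letter the same, and the 300-base window of Trim5 matched at 2 places on chromosome 7, of which the one nearest its gene model was taken. A second RefSeq start of Trim30 carries the core in an almost identical stretch at chr7:111594618-111594647. Counted from the start of transcription, the core lies at bases -36 to -27 in Trim30, -29 to -20 in 9230105E10Rik and -49 to -40 in Trim5, but after the start in Trim34 and Trim12 (11 to 20 in both). In Trim21 and Trim26 overlapping cores form a longer run than in the other 5 genes. The eighth member with the core was Trim2, an NHL member described below. The core was not found in the window of Trim25 or of Trim56, which says only that these letters are absent from those bases. With the window cut to the 150 bases before the start, 3 of the 26 members held the core in any of their windows, because several of the matches lie after the start or farther upstream. Over all windows the share was 1.59%, which counts windows and not genes.

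Outside the cluster, Trim21 (chromosome 7, 109706436 to 109713983, minus strand), the cytosolic receptor for antibody-coated virus, had 34.9 and 16.7 CPM in knockout-labelled replicates 1 and 2 and 5.98 and 5.41 CPM in control replicates 3 and 8. Both knockout-labelled libraries were above the controls, whose values were close together. The group means were 25.8 ± 12.9 and 5.70 ± 0.406 CPM (SD, n = 2 per group), for a log2 fold change of 2.18 and a standard error of 0.39. Leaving out single libraries gave 1.55 (knockout-labelled replicate 1) to 2.61 (replicate 2). Trim26 (chromosome 17, 36974079 to 36996343, plus strand), a PRY-SPRY ligase linked to the control of IRF3, had 57.2 and 42.9 CPM against 23.2 and 14.4 CPM, a log2 fold change of 1.41 with a standard error of 0.30. Its groups did not overlap either, and knockout-labelled replicate 1 and control replicate 3 were the higher library of their group.

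Trim25 (chromosome 11, 88860690 to 88881607, plus strand), the ligase best known for ubiquitin chains that switch on the RNA sensor RIG-I, was already well expressed in the controls. It had 114 and 127 CPM under the knockout label and 61.1 and 72.1 CPM in the controls, means of 121 ± 9.17 and 66.6 ± 7.78 CPM (SD, n = 2 per group). The groups did not overlap, and here knockout-labelled replicate 2 was the higher one, unlike in Trim30, Trim34, Trim12, 9230105E10Rik, Trim21, Trim5 and Trim26. The log2 fold change was 0.86 with a standard error of 0.19.

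Trim56 (chromosome 5, 137581514 to 137592079, minus strand), a ligase with reported activity against RNA viruses, went the other way among the antiviral members. It had 50.8 and 89.0 CPM under the knockout label and 142 and 98.1 CPM in the controls. Replicate 2 was just under the lower control, and the log2 fold change was -0.78 with a standard error of 0.33. Without knockout-labelled replicate 1 it was -0.43, and without replicate 2 it was -1.25. Trim65, a ligase for the RNA sensor MDA5, had values from 0.652 to 1.65 CPM in the 4 libraries, and its groups overlapped.

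The erythroid members were lower on average under the knockout label, but in both of them the groups overlapped and knockout-labelled replicate 1 was the low library. Trim10 (chromosome 17, 37006519 to 37014770, plus strand), a ligase needed for terminal erythroid differentiation in cell culture, had 419 and 1177 CPM in knockout-labelled replicates 1 and 2 and 1641 and 1068 CPM in control replicates 3 and 8. Replicate 1 was the lowest of the 4 libraries, whereas replicate 2 lay between the controls. The group means were 798 ± 536 and 1354 ± 405 CPM (SD, n = 2 per group), for a log2 fold change of -0.76 with a standard error of 0.52. Without knockout-labelled replicate 1 it was -0.20, and without replicate 2 it was -1.70.

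Trim58 (chromosome 11, 58453967 to 58465906, plus strand), which promotes loss of dynein and nuclear expulsion in late erythroblasts, followed the same order of libraries. It had 52.4 and 113 CPM under the knockout label and 138 and 87.2 CPM in the controls. The groups overlapped, since replicate 2 was above control replicate 8. The group means were 82.6 ± 42.7 and 113 ± 36.1 CPM (SD, n = 2 per group), for a log2 fold change of -0.45 with a standard error of 0.41. Leaving out knockout-labelled replicate 1 brought it to 0.0022, so the direction rested on that library, and leaving out replicate 2 brought it to -1.12.

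Trim10 sits in a row with Trim26 and Trim15 on chromosome 17, with 1294 bases between Trim26 and Trim15, 2363 bases between Trim15 and Trim10 and 0 annotated genes in either gap. On the log2 fold change scale Trim26 and Trim15 had similar values, 1.41 and 1.32, and Trim10 was at -0.76. Trim15 (36997638 to 37004155, minus strand), which is known from focal adhesions, was low throughout, at 3.52 and 5.47 CPM under the knockout label and 1.41 and 2.15 CPM in the controls, and its groups did not overlap. The same windows were searched for AGATAA, the core bound by GATA factors, on both strands, since GATA1 is the master regulator of this lineage. It was found in the windows of Trim10 and Trim39, 2 of 26 members (7.69%), against 548 of 7286 genes of the table (7.52%). The share of members was thus near that of the table, and 0 members held the core in the 150 bases before the start. The stretch upstream of Trim10 is given as a description only. It lies at chr17:37006344-37006373 (minus strand), with the core in capitals.
Trim10: gtgtggggactcAGATAAggctcttgagct

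The window of Trim58 held neither core. Nor did that of Trim28, and no reading of the factors follows from letters that are missing in 300 bases.

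Trim28 (chromosome 7, 13609501 to 13616384, plus strand) had 150 and 155 CPM under the knockout label and 171 and 182 CPM in the controls. Both knockout-labelled values were below both controls, and within each group the 2 libraries were close. The group means were 152 ± 3.37 and 177 ± 7.68 CPM (SD, n = 2 per group), for a log2 fold change of -0.21 with a standard error of 0.18, between -0.26 and -0.18 when any single library was left out. The knockout-labelled libraries of Trim28 were close together, where those of Trim10 differed 2.81-fold and those of Trim30 8.35-fold.

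In the other TIF1 members the groups stood in another order. Trim24, a cofactor of nuclear receptors, had 132 and 69.2 CPM under the knockout label and 57.1 and 53.8 CPM in the controls. Both knockout-labelled libraries were above the controls, replicate 1 by far the more, and the log2 fold change of 0.86 (standard error 0.32) was 0.32 without that library. Trim33, a regulator of SMAD signalling and of transcription elongation in erythroid genes, had 103 and 92.0 CPM against 104 and 99.9 CPM, with overlapping groups and a log2 fold change of -0.06 (standard error 0.18).

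Trim46 (chromosome 3, 89038099 to 89050231, minus strand), which bundles microtubules in axons, was the only measured gene of the COS-box class, which was drawn up from Trim-plus-number names. It had 2.32 and 1.19 CPM under the knockout label and 0.0363 and 0.127 CPM in the controls, from 71 and 46 counts against 1 and 6. The groups did not overlap, but the ratio of summed CPM of 18.1 had an exact 95% interval of 8.51 to 46.0 from counting error alone. The log2 fold change was 4.22 with a standard error of 0.69, and it ran from 3.66 to 5.44 when single libraries were left out. Its exons share 239 bases (6.3%) with Krtcap2 on the opposite strand, so part of its reads may belong to that gene if strand was not used.

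The remaining members lay closer to 0. Trim2, an NHL ligase known from neurons, had 17.0 and 14.4 CPM against 10.5 and 8.96 CPM, groups that did not overlap, and a log2 fold change of 0.69 (standard error 0.24). Its window held the interferon core as well, at chr3:84016713-84016742. The other members of the NHL and filamin class, Trim32 and Trim45, had log2 fold changes of -0.08 and -0.12 with overlapping groups. Trim59, a membrane-anchored member and the highest of its class, had 290 and 369 CPM under the knockout label and 511 and 372 CPM in the controls. Replicate 2 and control replicate 8 were nearly level, and the log2 fold change was -0.42 (standard error 0.26). Trim37, which acts in peroxisome import and centriole control, had 60.4 and 126 CPM against 139 and 132 CPM, with replicate 1 alone far below the rest. Its log2 fold change of -0.54 (standard error 0.35) was -0.10 without that library. Of the 10 members with no assigned class, 5 lay above both controls (27.4% of all genes), 2 below (26.7%) and 3 overlapped, with log2 fold changes from -0.54 to 1.32. Apart from Trim15 and Trim37, these were Trim23 at 0.68, Trim35 at 0.46, Trim44 at 0.30, Trim41 at 0.14, Trim8 at 0.13, Trim39 at -0.03, Trim11 at -0.07 and Trim27 at -0.43. Trim27, a ligase of the endosomal retromer pathway, had 60.4 and 74.7 CPM against 93.4 and 88.8 CPM, and both of its knockout-labelled values were below both controls. Trim13, which sits in the endoplasmic reticulum membrane, had a log2 fold change of 0.34 (standard error 0.30). Muscle members were not analysed here.

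The 2 knockout-labelled libraries were also set side by side for each class. Relative to the control mean, the median of the antiviral members was 2.36 in replicate 1 and 1.49 in replicate 2 on the log2 scale, so both libraries were above the controls. The median of the erythroid members was -1.36 in replicate 1 and -0.07 in replicate 2, so replicate 2 was near the control level. For the TIF1 members the medians were 0.01 and -0.14. Of the 10 antiviral members, 9 were farther from the control mean in replicate 1 than in replicate 2, beside 82.7% of all genes. Markers of other cell types were read in the same libraries. Summed neutrophil markers were 80.8 and 11.1 CPM under the knockout label and 15.3 and 13.5 CPM in the controls, with Ngp at 68.5 CPM in replicate 1 and 6.19 CPM in replicate 2. Summed macrophage markers (10 of 14 measured) were 53.6 and 29.5 CPM against 60.0 and 34.6 CPM. In both knockout-labelled libraries 0 of them were above the controls (27.4% of all genes) and 5 below (26.7%). Lyz2 made up 43.1 CPM of the first of these sums, and the 9 others, each with a log2 fold change below 0, summed to 10.6 and 21.2 CPM against 50.4 and 23.7 CPM. Megakaryocyte markers (4 of 5 measured) summed to 121 and 75.3 CPM against 39.4 and 64.3 CPM. Most of that sum was Itga2b, at 103 and 59.3 CPM against 19.8 and 51.0 CPM. Gp9 went the other way, with a log2 fold change of -0.41, and the groups overlapped for Gp9 and Ppbp. Hepatoblast markers (6 of 6) summed to 50.5 and 57.1 CPM against 107 and 41.5 CPM, and lymphocyte markers (0 of 5 measured) were not analysed here. In edgeR's quasi-likelihood test 0 of the 33 markers passed, erythroid ones included (0.103% of all genes passed). At an unadjusted p below 0.05 in this test, 5 macrophage markers were lower (2.08% of all genes) and 1 megakaryocyte marker, Pf4, was higher (9.82%). Among the 5, as among those below both controls, Vcam1 and C1qa were below 1 CPM in both knockout-labelled libraries. For both, a higher value in the controls was a condition of being in the table. DESeq2 called 1, the macrophage marker Vcam1, lower, where 3.49% of all genes were called in either direction. The part of these cells in the values of the members was not tested.

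**Figure D4:**
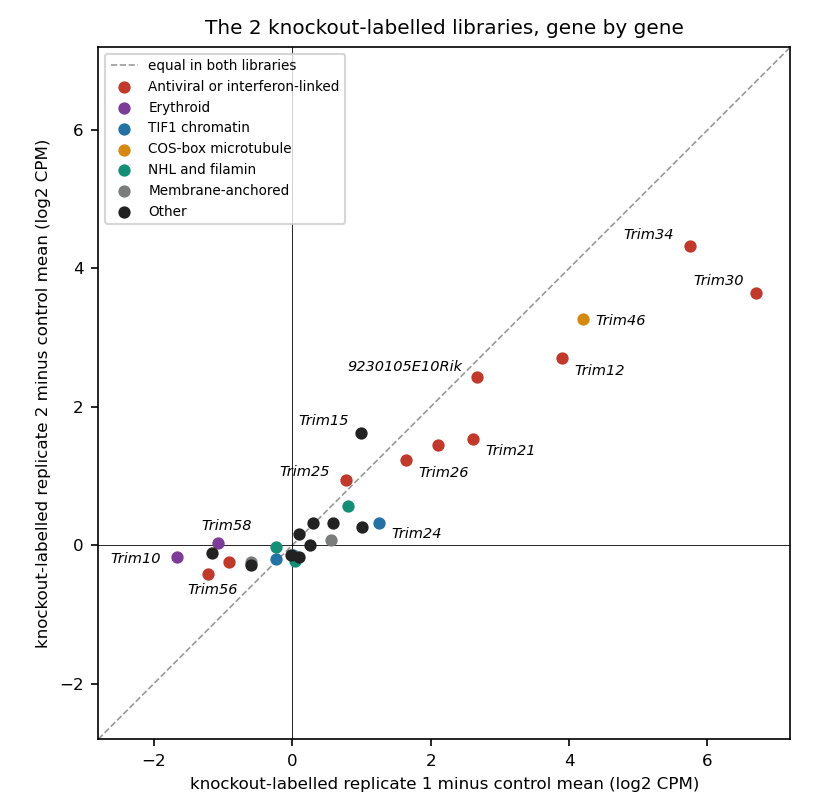
Deviation of each of the 31 members from the mean of the 2 controls (log2 scale), in knockout-labelled replicate 1 on the horizontal axis and in replicate 2 on the vertical axis, with the line of equality. The antiviral members lie mostly above 0 in both libraries, while Trim10 lies at -1.66 in replicate 1 and -0.17 in replicate 2, and Trim58 at -1.07 and 0.04.

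Levels were compared between members as CPM per kilobase of the longest annotated transcript. In the controls Trim10 was first of 31, at 605 ± 181 CPM per kilobase (SD, n = 2), followed by Trim59 at 150 ± 33.3, Trim28 at 54.5 ± 2.37 and Trim58 at 51.4 ± 16.5. The values of Trim28 and Trim58 differed by less than their spread, as did those of Trim37 at 24 ± 0.882 and Trim27 at 23.2 ± 0.833, the next in order. With the length of all exons together in place of the longest transcript, an alternative added after the data had been seen, Trim28 was at 43.7 CPM per kilobase. Trim25 was 9th at 11.9 ± 1.39 CPM per kilobase and the highest antiviral member after Trim56 at 13.0 ± 3.37, from which it differed by less than their spread. Of the other antiviral members, Trim26 was 17th at 4.34 ± 1.42, 9230105E10Rik 19th at 3.13 ± 0.633, Trim21 21st at 2.05 ± 0.146, Trim34 28th at 0.241 ± 0.0633 and Trim30 29th at 0.155 ± 0.0438. Trim30 and Trim5, at 0.154 ± 0.0922, differed by less than their spread. With all exons together Trim34 was at 0.147 and Trim30 at 0.0804 CPM per kilobase, both under Trim5 at 0.152. In the knockout-labelled libraries the levels per kilobase were 18.3 ± 2.15 for 9230105E10Rik, 21.6 ± 1.64 for Trim25, 9.52 ± 6.15 for Trim34, 9.60 ± 10.7 for Trim30 and 9.30 ± 4.66 for Trim21, still far under Trim10 at 357 ± 240.

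Genes that work with the TRIM ligases were counted by lists drawn from their known roles. Of the list of RNA sensing and interferon signalling around TRIM21, TRIM25 and TRIM30, 17 of 20 genes were measured and 1 was called higher (0.103% of all genes). It was Isg15, the ubiquitin-like modifier, at 501 and 217 CPM under the knockout label and 3.08 and 2.92 CPM in the controls, with a log2 fold change of 6.90, a standard error of 0.51 and an adjusted p of 0.0270 in edgeR's quasi-likelihood test. Both knockout-labelled libraries were above both controls in 12 of the 17 genes (27.4% of all genes) and below both in 3 (26.7%). The median log2 fold change was 1.37. At an unadjusted p below 0.05, 9 of the 17 were higher (9.82% of all genes) and 0 lower (2.08%). The 12 and the 9 both include Ddx58 and Dhx58. In control replicates 3 and 8 Ddx58 was at 0.653 and 0.613 CPM and Dhx58 at 0.725 and 0.824 CPM. For both, a higher value under the knockout label was a condition of being in the table. Ifih1, which encodes MDA5, had 52.5 and 45.3 CPM against 11.7 and 10.5 CPM, a log2 fold change of 2.14 and an adjusted p of 0.0505, just outside the threshold. Irf7, a transcription factor of interferon genes, had 116 and 51.3 CPM against 5.22 and 6.49 CPM and an adjusted p of 0.0747. The most abundant genes of the list, Vcp at 604 ± 9.29 and Zc3hav1 at 213 ± 34.0 CPM in the controls, did not pass. Leaving out knockout-labelled replicate 1 raised the count of called genes in this list to 8 (1.33% of all genes), and leaving out replicate 2 raised it to 12 (32.6%). It was 3 without control replicate 3 (0.383%) and 2 without control replicate 8 (0.252%).

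In the 4 other lists 0 genes passed with edgeR's quasi-likelihood test (0.103% of all genes) and 0 with DESeq2 (3.49%). At an unadjusted p below 0.05 in the quasi-likelihood test, 1 gene was higher, Mid1 (9.82% of all genes), and 1 lower, Morc2a (2.08%). Mid1 was at 0.544 and 0.549 CPM in control replicates 3 and 8, so its higher value was also a condition of being in the table. For the silencing partners of TRIM28, 16 of 17 were measured, the median log2 fold change was -0.21 and both knockout-labelled libraries were below both controls in 10 (26.7% of all genes). Morc2a, a helper of the HUSH silencing complex, was at 22.8 and 37.4 CPM against 48.4 and 49.3 CPM, and Pphln1, a HUSH subunit, at 24 and 38.1 CPM against 47.0 and 50.4 CPM. In both genes replicate 1 was the lowest library, and in neither did the groups overlap. Hdac2, a histone deacetylase, had a log2 fold change of -0.42 (standard error 0.22). Dnmt1, the maintenance DNA methyltransferase, and Cbx5, the heterochromatin protein HP1 alpha, were the most abundant, with log2 fold changes of -0.21 and -0.17. Leaving out knockout-labelled replicate 2 let 4 genes of this list pass, where 32.6% of all genes passed, and leaving out any other library let 0 pass.

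Of the ubiquitin-conjugating enzymes that TRIM ligases use, 11 of 12 were measured, with a median log2 fold change of -0.02. Ube2n, which builds the K63-linked chains used in antiviral signalling, had 96.6 and 108 CPM against 138 and 133 CPM, and its partner Ube2v2 had 18.6 and 27.3 CPM against 33.6 and 34.2 CPM. Both sat below the controls, with adjusted p of 0.433 in edgeR's quasi-likelihood test for each. Ube2l6, an ISG15-conjugating enzyme that red cell precursors make in quantity, was the highest of the list at 947 ± 256 CPM in the controls and had a log2 fold change of -0.04. Of the others, Ube2d3 had 334 and 261 CPM against 244 and 257 CPM, and Ube2v1 had 237 and 293 CPM against 282 and 250 CPM. Leaving out knockout-labelled replicate 2 let 1 gene of this list pass, where 32.6% of all genes passed.

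The red cell maturation list around TRIM58 and TRIM10 was measured whole (18 of 18), with a median log2 fold change of -0.19, 4 genes above both controls (27.4% of all genes) and 5 below (26.7%). Klf1, the erythroid transcription factor, had 204 and 520 CPM under the knockout label and 689 and 533 CPM in the controls. Its groups did not overlap, but replicate 2 was near control replicate 8. Replicate 1 was the low library, as in Trim10 and Trim58, whose groups overlapped. Fbxo7, a subunit of an erythroid ubiquitin ligase, had 310 and 202 CPM against 179 and 153 CPM, and Ube2o, the enzyme that clears ribosomes from reticulocytes, had 1450 and 1190 CPM against 1040 and 771 CPM. The dynein light chain gene Dynll1 had 123 and 153 CPM against 189 and 186 CPM. Slc4a1, the anion exchanger band 3, and Xpo7, a nuclear exporter of maturing erythroblasts, were the most abundant of the list at 13800 ± 3130 and 3090 ± 1200 CPM in the controls. Their groups overlapped, with 10500 and 12900 CPM for Slc4a1 and 1270 and 2410 CPM for Xpo7 in replicates 1 and 2 of the knockout label. With knockout-labelled replicate 2 left out, 3 genes of the list passed, where 32.6% of all genes did, and with each other library left out, 0 passed. Family members under other names were measured for 2 of 8: Pml, the organiser of nuclear bodies, had 119 and 178 CPM against 180 and 160 CPM with overlapping groups, and Mid1, a microtubule-bound ligase, had 1.27 and 1.22 CPM against 0.544 and 0.549 CPM.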

How the data were processed

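The authors deposited raw counts per gene, whole numbers in 4 library columns, and a comparison table with a p-value per gene, raw and adjusted. Per the submitters' processing notes the tools include HTSeq, edgeR, limma, Bowtie2 2.1.0.0, TopHat2 2.0.8 and Trimmomatic 0.30 and the builds are mm9 and NCBIM37, with no role for each; strand and the handling of reads shared between copies are not given in the sources used here.

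Knockout-labelled and control libraries (2 each, grouped by title) were compared on all 10716 genes with the quasi-likelihood F test (two-sided) of edgeR 4.0.16 in R 4.3.3, after filterByExpr (0 genes removed) and TMM scaling, with robust=TRUE in glmQLFit. P-values were adjusted by Benjamini-Hochberg over all genes with a threshold of 0.05, on 2 residual degrees of freedom and a common biological coefficient of variation of 25.6%. A standard error is the size of the log2 fold change over the root of F. The fit was tested on simulated data. CPM use the TMM-scaled library total.

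The members, role classes, partner and marker lists were chosen with earlier results of these data known. Named are the 8 members singled out when the family was chosen, members with an absolute log2 fold change of at least 1 or an unadjusted p below 0.05, the member of each class highest in the controls, and in each partner list up to 3 genes of smallest p and 2 of highest control level. The other members, Klf1, Ddx58, Dhx58 and the markers Ngp, Lyz2, C1qa, Pf4, Itga2b, Gp9, Ppbp and Vcam1 are named outside the rule, after their values were seen. Alternatives were RLE scaling, no scaling, no filter, a stricter filter (1 CPM or more throughout at least 1 group), DESeq2 1.42.0, legacy=FALSE and leaving out each library.

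Of the members, 27 matched RefSeq by symbol and 4 by synonym. Promoter windows are RefSeq's (GRCm38.p6), placed by exact match on the NCBIM37 genome, whose coordinates are printed. Protein sequences were not used here.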

Additional observations from a re-analysis of the deposited data

How the results depend on the processing

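Of 180 values (18 named members under 10 alternatives), 144 kept their direction and side of the threshold, 35 kept their direction and passed it, and 1 reversed: Trim58 was at 0.0022 without knockout-labelled replicate 1 (reported -0.45, -1.12 to 0.0022 over the single libraries left out). Called genes over the whole table, members and partner genes were 11, 1 and 1. With no scaling between libraries they were 87, 5 and 6, and with DESeq2 374, 8 and 9. Partner genes were 2 with the stricter filter and 2 with legacy=FALSE, where Ifih1 joined Isg15. Leaving out single libraries gave 27 to 3492 genes, 3 to 17 members and 2 to 20 partner genes. Each of these fits called more than the full one, with 1 library fewer, and the cause was not tested. With no scaling, the median of all genes was -0.07 and that of the NHL and filamin members -0.15 (reported -0.08). That of the membrane-anchored members was -0.11 (reported -0.04). Without single libraries the class medians ran from 1.45 to 2.33 (antiviral), -1.41 to -0.10 (erythroid), -0.15 to 0.00 (TIF1), 3.66 to 5.44 (Trim46 alone), -0.10 to 0.0354 (NHL and filamin), -0.12 to 0.0438 (membrane-anchored) and 0.08 to 0.17 (others). In the 150 bases before the start, 3 members held the interferon core and 0 the GATA core. Trim28 was at 43.7 CPM per kilobase with all exons together. Under the stricter filter Trim65 was not tested, and the protein-length alternative was not run. No paired analysis was possible because the groups share no replicate number. Below 1 CPM, as in the controls of Trim30, Trim34, Trim5 and Trim46, the depth limits the size of a ratio.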
